A study of Rattus norvegicus with 8 samples.

Results

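The nuclear-encoded genes of the mitochondrial respiratory chain were followed in RNA from rat hippocampal slice cultures. Members were all genes with a probe set whose only platform symbol began with Nduf, Sdha to Sdhd, Uqcr, Cox4 to Cox8 or Atp5. This gave 90 genes on 101 probe sets, of 14218 genes with a single symbol on the array. Where a gene had several probe sets, the one with the highest mean intensity over the 8 arrays stood for it. Of the 90 genes, 86 passed the filter on low intensity and entered the tests. The other 4, Cox4i2, Cox6b2, Cox7b2 and Cox8b, are isoforms best known from other tissues and are described at the end of the account of complex IV.

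The respiratory chain sits in the inner mitochondrial membrane and passes electrons from NADH and succinate to oxygen. Complex I oxidises NADH, complex II oxidises succinate, complex III passes the electrons to cytochrome c, and complex IV passes them to oxygen. Complexes I, III and IV pump protons, and complex V, the ATP synthase, makes ATP as the protons flow back. Most subunits are encoded in the nucleus, as are all members here, while the core of the proton pumps is partly encoded in mitochondrial DNA. In hippocampal neurons most ATP for ion pumping and synaptic signalling comes from this chain, and CA1 pyramidal cells are known to die more readily than CA3 pyramidal cells when oxygen or glucose fails.

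Each array held total RNA pooled from 15 slice cultures from which the CA1 or the CA3 field of the hippocampus had been dissected, at 7 days. By title, each field had 3 control arrays and 1 array of lesioned cultures. The labels do not say what the lesion was, from which event the days were counted, or which strain or age of rat was used. They also do not say that the pools came from separate animals, so that all p-values measure the spread between these arrays, which may in part be technical. The lesion groups have a single array each, and their differences have no replicate check.

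The arrays shared a common scale, with a trimmed mean signal of 2501 on each, leaving out the outer 2%, and a median signal between 561 and 815. The ratio of the 3' to the 5' control probe set, a sign of RNA integrity, was between 3.71 and 5.23 for Gapdh and between 14.5 and 22.2 for beta-actin. The 3' probe set was thus the brighter on every array, and what this did to single probe sets was not tested. The field labels were set beside markers, which were chosen with earlier results of these data known and so give no independent check. Of 5 tested genes of the CA1 list, 4 were called lower in CA3 (limma, adjusted over all probe sets), and of 5 of the CA3 list, 2 were called higher, Chgb by 1.74 and Nectin3 by 1.69 on the log2 scale. Marker lists of other cells differed between arrays of the same group. The summed signal of 13 microglia and macrophage genes, of which 11 were tested, was 7236, 17750 and 104400 in CA1 controls 1, 2 and 3 and 148800 in the CA1 lesion array. It was 7506, 13560 and 87520 in the CA3 controls and 106900 in the CA3 lesion array. No microglial marker was listed at 0, and the lowest signal was 43.1, for Itgam.

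The respiratory chain genes were among the brightest on the array. Of the 86 tested genes, 65 lay above the 90th percentile of mean intensity over all probe sets. The median percentile was 95.4 for complex I, 95.5 for complex II, 98.1 for complex III, 98.2 for complex IV and 98.7 for complex V. Complex I had 42 members, of which 36 are subunits or subunit-like and 6 are assembly factors. Complex II had 8, with its 4 subunits and 4 assembly factors. Complex III had 7 members and complex IV had 17, of which 1 is a pseudogene of Cox6c. Complex V had 16, of which 1 is the ATPase inhibitor Atp5if1. These percentiles rank probe sets, whose brightness also depends on their probes, and give no order of transcript levels between genes.

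Promoters of 3 genes on which the account turns are printed first. They are Sdha, whose signal was highest in both lesion arrays, Ndufb3, whose signal was lowest in both, and Uqcrc2. By the probe set that stood for it, Uqcrc2 varied least over the controls among the members. The sequences are the 250 bases before the RefSeq start of each gene on GRCr8, 5′ to 3′ along the + strand, at chr1:30764303-30764552 for Sdha, chr9:67623167-67623416 for Ndufb3 and chr1:184598990-184599239 for Uqcrc2. Capitals mark matches to the motifs named below.
Sdha: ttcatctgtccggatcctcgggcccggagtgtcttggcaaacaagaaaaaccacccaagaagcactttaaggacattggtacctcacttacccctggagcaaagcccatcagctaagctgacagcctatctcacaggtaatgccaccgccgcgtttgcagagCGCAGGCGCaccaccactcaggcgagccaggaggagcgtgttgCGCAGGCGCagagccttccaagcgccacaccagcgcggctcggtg
Ndufb3: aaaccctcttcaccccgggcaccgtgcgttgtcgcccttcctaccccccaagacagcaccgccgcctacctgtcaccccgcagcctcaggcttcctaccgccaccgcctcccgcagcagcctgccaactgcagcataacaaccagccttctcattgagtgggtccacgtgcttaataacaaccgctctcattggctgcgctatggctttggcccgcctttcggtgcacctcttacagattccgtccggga
Uqcrc2: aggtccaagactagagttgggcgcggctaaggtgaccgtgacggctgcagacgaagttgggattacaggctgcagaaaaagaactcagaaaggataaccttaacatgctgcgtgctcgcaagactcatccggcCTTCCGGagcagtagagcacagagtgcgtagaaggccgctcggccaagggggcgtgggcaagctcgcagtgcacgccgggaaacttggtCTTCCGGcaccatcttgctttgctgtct
The motifs searched, on both strands, were those of NRF1 (GCGCNTGCG) and GABPA (CCGGAAG), the factors long linked to respiratory chain genes, and those of YY1 (AAGATGGCG) and the oestrogen-related receptor alpha (TCAAGGTCA). Sdha held 2 NRF1 matches, Uqcrc2 held 2 GABPA matches and Ndufb3 held none of the 4 motifs. Of the 82 members with a promoter entry, 17 (20.7%) held the NRF1 motif, against 7.19% of 19005 protein-coding genes. The GABPA motif was found in 24 members (29.3%), against 9.52% of all promoters. The YY1 motif was found in 1 member (1.22%, against 0.784%) and the oestrogen-related receptor motif also in 1 (1.22%, against 0.305%). A match is a description of letters in the window and not a binding site.

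The first comparison set CA3 against CA1 in the control cultures and asked whether the 2 fields differ in respiratory chain transcripts. No member passed the test. The probe set table gave 98 calls among 18625 probe sets (0.526% of those tested), with 53 higher and 45 lower in CA3, and 0 of the 86 members (limma, adjusted p at most 0.05). At an unadjusted p under 0.05 limma gave 1 member of 86, against 1548 of 18625 probe sets (8.31%). The count of 98 fell to 47 without CA1 control 1, to 27 without CA1 control 2, to 29 without CA3 control 1 and to 24 without CA3 control 2. It was 5 without control 1 of both fields, and no member was called in any of these fits.

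The differences between the fields were small as well as below the threshold. The median over the 86 members was -0.01 on the log2 scale, CA3 minus CA1, against -0.03 over all 10844 genes tested. All log2 differences are of log2(signal + 16), which understates changes of dim genes. In 79 of 86 members (91.9%) the difference was within 1.25-fold, against 62% of all genes and 79.8% of genes above the 90th percentile of intensity. The 95% confidence interval of the difference lay within 2-fold either way in 78 members (90.7%), against 58.9% of all genes and 92% of the bright genes. It lay within 1.5-fold in 46 members, so that smaller differences between the fields were not resolved in the others. The median was -0.01 for complex I, 0.09 for complex II, -0.03 for complex III, -0.02 for complex IV and 0.01 for complex V. In bulk RNA of this kind, fewer cells of a type and less RNA per cell cannot be told apart. The pan-neuronal list was higher in CA3 by a median of 0.53, with 12 of 12 genes higher and 1 called, Nefl. Its part in the differences of the members was not tested.

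**Figure D1:**
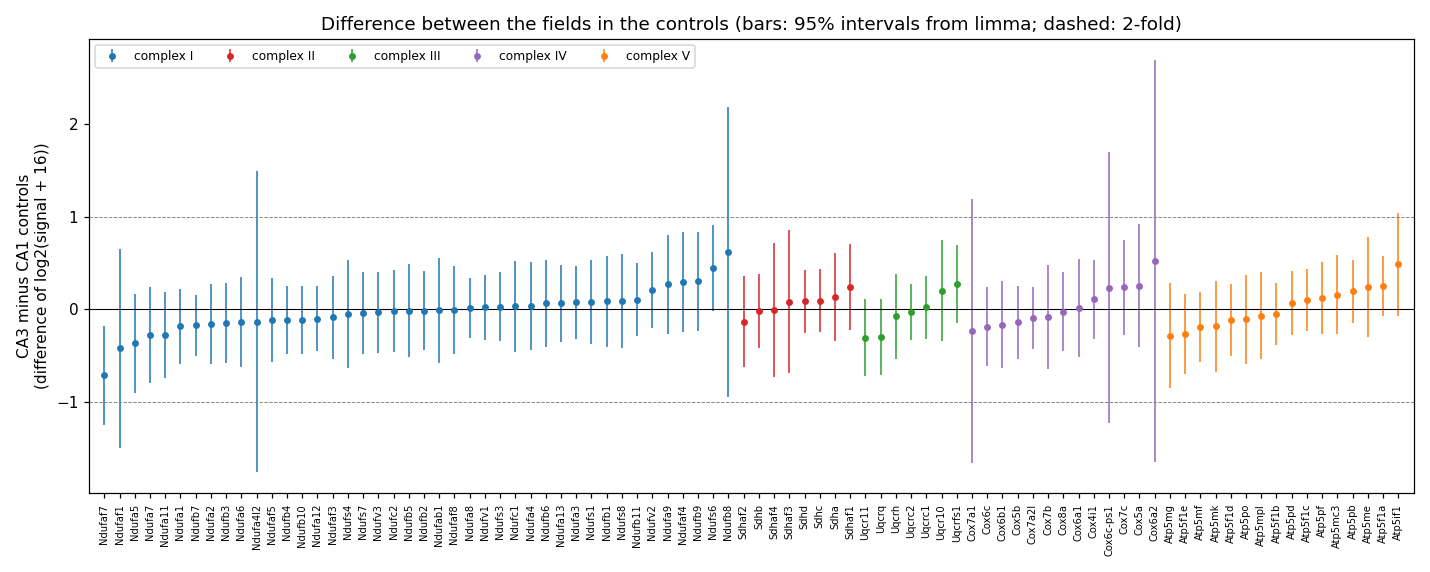
Log2 difference of CA3 minus CA1 controls for each of the 86 tested members, grouped by complex, with the 95% confidence interval from limma (3 arrays a field). Most points lie near 0, 79 of 86 within 1.25-fold, and the lowest is Ndufaf7 at -0.71.

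The list of core subunits held the nuclear-encoded subunits with redox centres or catalytic sites, such as Ndufs1, Ndufv1, Sdha, the Rieske protein and the ATP synthase beta chain. It also held close partners, such as the anchors of succinate dehydrogenase, the core proteins of complex III, and Cox4i1, Cox5a and Cox5b, which surround the mitochondrially encoded core of complex IV. All 18 tested lay within 1.25-fold between the fields, from -0.14 to 0.27, with 13 higher in CA3 and a median of 0.08. Uqcrc2, a core protein of complex III, had signals of 37945, 39000 and 37469 in the CA1 controls and 37211, 36931 and 38219 in the CA3 controls. The groups overlapped, and the lesion arrays, at 36436 in CA1 and 37932 in CA3, lay close by. Its range over the 6 controls was 0.08 on the log2 scale, and those of Ndufa8, Ndufb10 and Sdhd were 0.21, 0.29 and 0.30. The second tested probe set of Uqcrc2, with control signals from 362 to 1146, had a range of 1.62 and a field difference of -0.56.

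In 3 of the 86 tested members the control arrays of the fields did not overlap. In 1 of 86, Atp5f1a, all CA3 controls were above all CA1 controls, which held for 6.35% of all genes, and in 2 of 86, Ndufaf7 and Ndufb7, they were all below, which held for 8.76%. Atp5f1a, the alpha subunit of the catalytic head of ATP synthase, had signals of 40332, 42971 and 40080 in CA1 and 54945, 48624 and 44009 in CA3. The lowest CA3 array was close to the highest of CA1. The difference was 0.25 ± 0.15 (SE; 95% interval -0.08 to 0.58, limma adjusted p = 0.692).

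Ndufaf7, an assembly factor of complex I, had the lowest difference among the members. Its signals were 2710, 3408 and 2968 in CA1 controls and 1521, 2215 and 1829 in CA3 controls. The difference was -0.71 ± 0.24 (SE), or 1.64-fold lower in CA3, with an interval of -1.25 to -0.17 (limma adjusted p = 0.432). Its other probe set gave -0.36. Ndufb7, an accessory subunit of complex I, gave 17404, 18096 and 18373 in CA1 and 17165, 14909 and 15912 in CA3, a difference of -0.17 ± 0.15 (limma adjusted p = 0.799).

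For 9 members a second probe set could be tested, and its sign of the field difference was the opposite in 5. For Atp5if1, which blocks ATP synthase from running backwards, the brighter probe set gave 0.49 and the other -0.80. For Atp5po the values were -0.11 and 0.63, and for Ndufa7 -0.28 and 0.54. For Ndufa9, a complex I subunit near the ubiquinone site, both were positive, at 0.27 and 1.71. None of these passed the test, and the single value of a gene carries this uncertainty.

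The second comparison set the lesion arrays against the controls of their own field. No member was called in any of its 4 forms in the fit with the groups alone, and neither was any other probe set. The mean lesion effect over both fields gave 0 calls of 18625 probe sets (0%) and 0 of 86 members, the CA1 lesion 0% and 0 members, the CA3 lesion 0% and 0 members, and the difference between the 2 lesion effects 0% and 0 members (limma, adjusted). At an unadjusted p under 0.05 limma gave 3 members of 86 for the mean effect, against 6.41% of probe sets. It gave 1 for CA1, against 3.63%, 2 for CA3, against 4.68%, and 1 for the difference between the lesion effects, against 3.09%.

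The mean lesion effect had a median of -0.03 over the members and of 0.03 over all genes tested, with 38 members higher and 48 lower. This tally depended on whether the replicate number was fitted as a block. With the block 13 members were higher and 73 lower, with a median of -0.22, as given at the end. The values that follow are without it. The mean lesion effect was within 1.25-fold in 76 members (88.4%), against 63.2% of all genes and 80.7% of the bright genes. The 95% interval lay within 2-fold in 79 members (91.9%), against 60.7% of all genes and 91.5% of the bright genes. By complex the median was -0.04 for I, 0.05 for II, 0.00039 for III, -0.09 for IV and -0.06 for V. In CA1 alone the median was -0.06, and in CA3 alone it was -0.01. Beside this, the pan-neuronal list had a median lesion effect of -0.30, with 12 of 12 genes lower, and the microglia and macrophage list 2.50, with 11 of 11 higher. The myelin list was at 1.70, with 8 of 8 higher, and the astrocyte list at 0.39, with 9 of 9 higher. No gene of these lists passed the test (limma), and their part in the lesion values of the members was not tested.

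**Figure D2:**
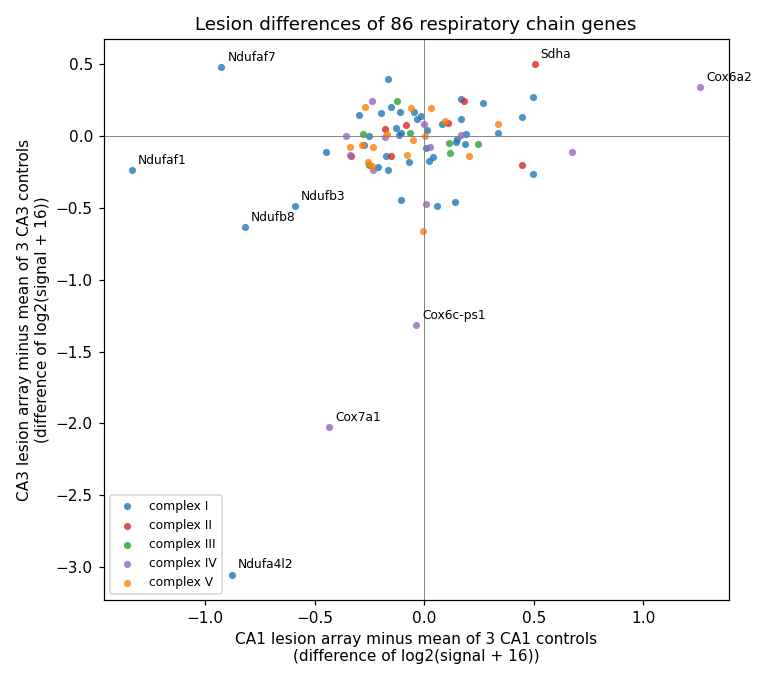
Lesion minus control differences (log2) of the 86 tested members in CA1, horizontal axis, and CA3, vertical axis, coloured by complex. Each axis rests on 1 lesion array against 3 controls; Sdha lies at 0.50 on both axes, Ndufb3 is low in both, and Ndufa4l2, at -3.05, and Cox7a1 are low in CA3.

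The members were also counted by whether a lesion array lay beyond all 3 controls of its field. The CA1 lesion array lay above its controls in 10 of 86 members (11.6%), against 23.4% of genes, and below them in 14 (16.3%), against 23%. The CA3 lesion array lay above in 15 (17.4%), against 29.3%, and below in 16 (18.6%), against 23.9%. Both lesion arrays were above their controls in 2 of 86 (9.37% of all genes), Sdha and Sdhd, and both were below in 3 of 86 (7.55% of all genes), Ndufb3, Cox7a2l and Ndufa4l2. In 3 of 86 the 2 lesion arrays lay beyond their controls in opposite directions, Ndufa1, Ndufaf7 and Ndufaf8, which held for 8.51% of all genes.

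The 2 members higher in both lesion arrays belong to succinate dehydrogenase, which is complex II and also an enzyme of the citric acid cycle. Sdha is its flavoprotein, which binds succinate. Its signals were 20333, 18769 and 25318 in CA1 controls and 30190 in the CA1 lesion array. In CA3 they were 17081, 27305 and 27216 in controls and 32972 with the lesion. Both lesion arrays were above every control array of either field. The mean difference was 0.50 ± 0.21 (SE; interval 0.03 to 0.98), and it did not pass (limma adjusted p = 0.771). Sdhd, a membrane anchor of the same enzyme, had 26830, 31227 and 25370 in CA1 controls and 31449 with the lesion, and 27277, 30799 and 30410 in CA3 controls and 34800 with the lesion. The CA1 lesion array was barely above control 2, and the mean difference was 0.21 ± 0.15. The second tested probe set of Sdhd gave 0.02, with both lesion arrays inside the control ranges of their fields. The iron-sulphur subunit Sdhb, with lesion signals of 22078 and 22043, and the other anchor Sdhc, with 26248 and 27666, lay within or near their control ranges.

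Ndufb3, a small accessory subunit of the membrane arm of complex I, was the bright member with the lowest lesion values. Its signals were 104460, 102670 and 74138 in CA1 controls and 61544 in the CA1 lesion array. In CA3 they were 92689, 93133 and 67894 in controls and 59792 with the lesion. Control 3 was well below the other controls in both fields, and the lesion array was lower still. The mean difference was -0.54 ± 0.19 (SE; interval -0.97 to -0.11, limma adjusted p = 0.771). Cox7a2l, a factor that joins complexes III and IV into supercomplexes, gave 49016, 61653 and 50232 in CA1 controls and 45374 with the lesion, and 50177, 52620 and 47450 in CA3 controls and 42579 with the lesion. Its mean difference was -0.23 ± 0.15.

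**Figure D3:**
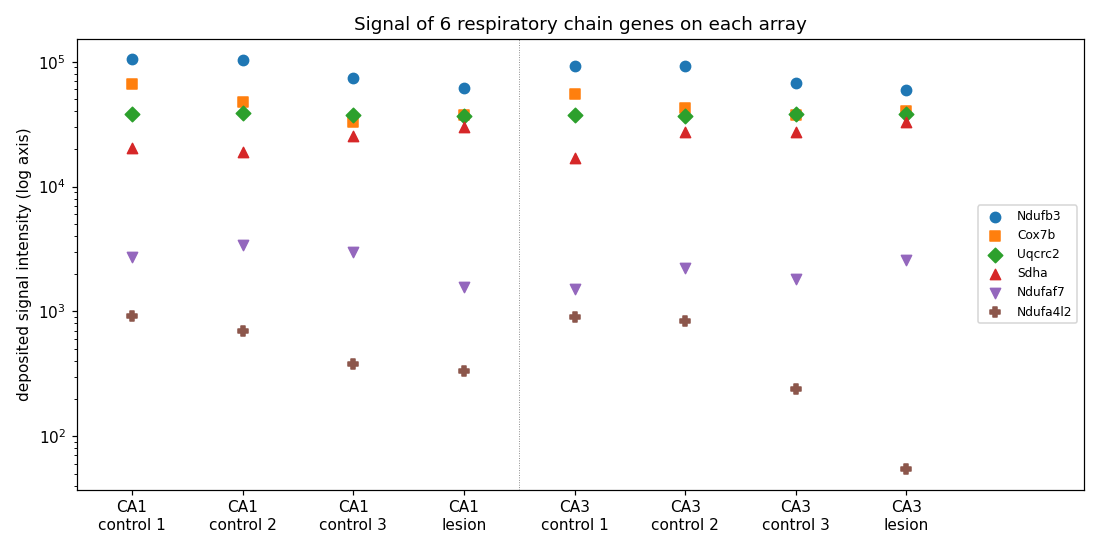
Signal of 6 members on each of the 8 arrays, log axis, with controls and lesion arrays of each field marked. Sdha is highest and Ndufb3 lowest in both lesion arrays, and the dim Ndufa4l2 drops to 54 in the CA3 lesion array. Uqcrc2, by its brighter probe set, lies between 36436 and 39000 on all arrays.

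The lowest lesion differences, those of Ndufa4l2 and Cox7a1, came from dim probe sets. Ndufa4l2, a relative of Ndufa4 that is induced by hypoxia in many cells, had signals of 923, 698 and 378 in CA1 controls and 333 in the lesion array. In CA3 they were 900, 841 and 238 in controls and 54 with the lesion, so that control 3 was the lowest control in both fields. The CA3 difference was -3.05 ± 1.03 (SE; limma adjusted p = 0.870). Detection calls were not used here, so that a signal of 54 is not shown to be above background and no fold is given. Cox7a1, the muscle-type isoform of a complex IV subunit, had 648, 612 and 468 in CA3 controls and 128 with the lesion, a difference of -2.02 ± 0.91. In CA1 its controls were 1088, 282 and 980 and its lesion array 494, inside their range. Cox6a2 had the highest CA1 value, 1.26, but its lesion signal of 755 lay inside its control range. The signals of these 3 genes were at most 1088, against array medians of 561 to 815.

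The other members named for the smallest p in each direction of the mean lesion effect ranged from -1.23 to 0.38. Higher values were found for the complex I subunits Ndufa7 (0.38 ± 0.23), Ndufs7 (0.29 ± 0.20), Ndufs8 (0.25 ± 0.23) and Ndufb11 (0.21 ± 0.18). Ndufs7 and Ndufs8 hold the iron-sulphur clusters nearest to ubiquinone. Lower values were found for Cox7a1 (-1.23 ± 0.64), the assembly factor Ndufaf1 (-0.79 ± 0.48) and the subunit Ndufb10 (-0.28 ± 0.17). None passed the test, and the limma adjusted p was at least 0.771 for every member. Of the 9 members with a second tested probe set, 6 had the opposite sign of the mean lesion effect in it, Ndufa7 among them.

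Within single fields, the CA1 lesion gave higher values for Cox5a (0.67 ± 0.42), a subunit of complex IV, Sdha (0.50 ± 0.30), Ndufaf8 (0.49 ± 0.30) and Ndufs7 (0.45 ± 0.28). It gave lower values for Ndufaf1 (-1.33 ± 0.68), Ndufaf7 (-0.93 ± 0.34), Ndufb3 (-0.59 ± 0.27) and Atp5mf (-0.34 ± 0.24), a membrane subunit of ATP synthase. The CA3 lesion gave higher values for Sdha (0.50 ± 0.30), Ndufaf7 (0.48 ± 0.34), Ndufv3 (0.40 ± 0.28) and Sdhd (0.24 ± 0.21). The second tested probe set gave 0.52 for Ndufaf7, but -0.33 for Ndufv3, with the lesion array below all CA3 controls. For Sdhd it gave 0.01, with the lesion array inside the control range. Besides Ndufa4l2 and Cox7a1, the lower values with the CA3 lesion were those of Atp5me (-0.66 ± 0.34) and Ndufb10 (-0.45 ± 0.23). The limma adjusted p was 0.9989 for CA1 and at least 0.870 for CA3, each with 1 lesion array. For the CA3 minus the CA1 lesion effect, the values were 0.57 ± 0.39 for Ndufv3, a small subunit of the NADH-binding module (-0.030 with its probe sets averaged), 0.48 ± 0.38 for the complex IV subunit Cox6c, and -0.65 ± 0.42 for Sdhaf1, which helps load iron-sulphur clusters into Sdhb. Of the complex I assembly factors, Ndufaf7 was at 1.40 ± 0.48 and Ndufaf8 at -0.76 ± 0.43, and Ndufa4l2 was at -2.17 ± 1.46 (limma adjusted p = 0.9999 for each).

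The members moved together between control arrays of the same group. The median of the 86 members, as deviation from the gene's mean over the 8 arrays, was 0.28, 0.04 and -0.21 in CA1 controls 1, 2 and 3, and -0.04 in the CA1 lesion array. In CA3 it was 0.14, -0.0024 and -0.08 in the controls and -0.02 in the lesion array. Control 1 was the highest control in 64 of 86 members in CA1 and in 59 in CA3, and control 3 was the lowest in 64 and in 53. The share over all genes was not counted for these orders. Shares for control 3 against control 1 are given below. The lesion arrays lay between the extremes of the controls. The CA1 lesion array was lower than control 1 by a median of -0.31, and higher than control 3 by 0.19. In CA3 the lesion array was at -0.18 against control 1 and at 0.05 against control 3.

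**Figure D4:**
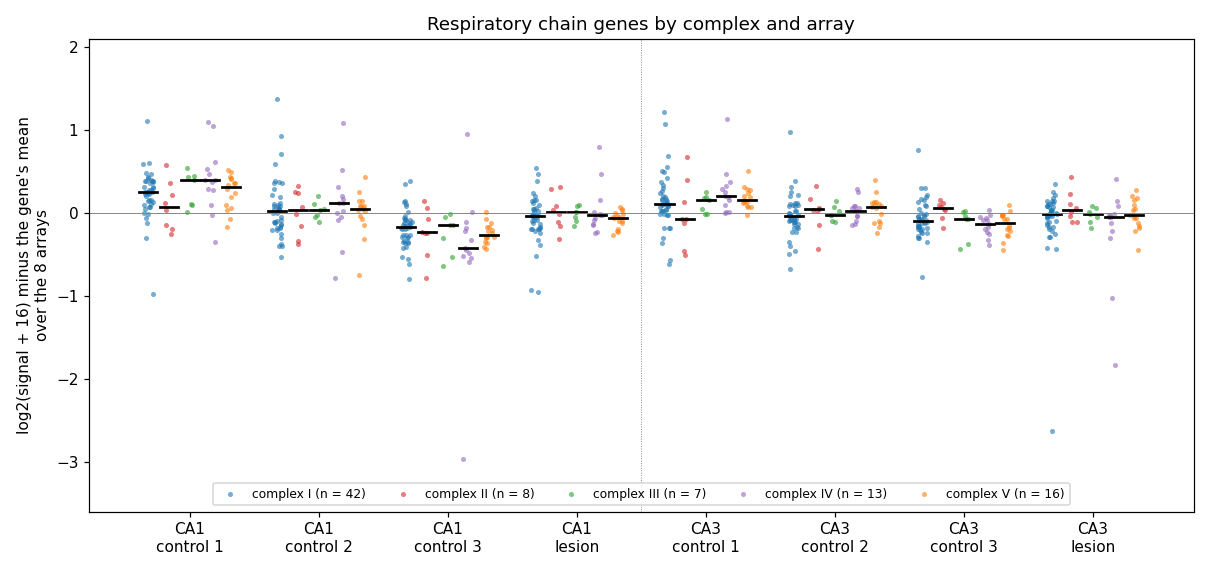
Deviation of each of the 86 tested members from its own mean over the 8 arrays (log2, vertical axis), by array and complex, with bars at the complex medians. The bars are highest in control 1 and lowest in control 3 of CA1, where complex IV shows the widest step, and complex II departs from this in CA3.

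Control 3 minus control 1 had a median of -0.50 over the members in CA1 and of -0.27 in CA3, against 0.0057 and 0.016 over all genes tested and -0.08 and -0.0079 over the bright genes. In 64 of 86 members control 3 was below control 1 in both fields (74.4%), against 30.8% of all genes, and in 3 it was above in both (3.49%), against 32.5%. The order control 1, 2, 3 from high to low in both fields held for 31 of 86 members (36%), against 7.2% of genes. With quantile normalisation the medians were -0.44 and -0.26, and 61 members were lower in both fields. These counts describe the arrays, which within a group differ by label only in the replicate number, and no test was made. Both lesion arrays carry the number 1, and a fit with this number as a block is given at the end.

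The shared movement was unequal among the complexes. Control 3 was lower than control 1 in both fields in 15 of 16 members of complex V (medians -0.55 in CA1 and -0.33 in CA3), 12 of 13 of complex IV (-0.68 and -0.36), 6 of 7 of complex III (-0.58 and -0.24) and 28 of 42 of complex I (-0.44 and -0.27). In complex II it was lower in 3 of 8, with medians of -0.32 and 0.15. Of the subunits not on the core list 50 of 56 were lower in both fields and 0 higher. Of the core subunits 11 of 18 were lower in both, and of the assembly factors 2 of 10. Of these assembly factors 6 belong to complex I and 4 to complex II, so that complex and kind of member are partly mixed. The 3 members higher in control 3 in both fields were Sdha, its assembly factor Sdhaf2 and Ndufaf7.

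Complex IV shows the pattern in single genes. Cox7b, a small subunit of the membrane part, had signals of 66857, 47648 and 32597 in CA1 controls and 37148 in the lesion array, and 54660, 42700 and 37263 in CA3 controls and 40338 in the lesion array. In both fields the lesion array lay between controls 2 and 3. Cox4i1, the regulatory subunit that binds ATP, had 67424, 72239 and 45917 in CA1 and 72476, 65499 and 59223 in CA3. Cox6a1 differed between the fields in this respect, with 74944, 50168 and 35511 in CA1 controls and 51540, 52598 and 50743 in CA3 controls. Ndufa4, named for complex I and now known as a complex IV subunit, gave 60574, 47760 and 36309 in CA1 and 58281, 49166 and 39973 in CA3, with lesion signals of 42042 and 41181.

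Isoforms of complex IV known from other tissues were dim here. Cox6a2, the heart and muscle isoform of Cox6a1, passed the filter and had the widest range over the controls, 4.02 on the log2 scale, from a signal of 41 in CA1 control 3 against 904 and 623 in the other CA1 controls. Ndufb8 had the next range, 2.36, with CA1 controls at 327, 1744 and 375. Of the 4 untested genes, Cox4i2, the isoform known from lung, had signals between 58 and 326 on the 8 arrays. The testis-type Cox6b2 lay between 14 and 211 and Cox7b2 between 25 and 1279. The muscle-type Cox8b lay between 61 and 1026. The CA3 controls of Cox6b2, at 53, 46 and 14, were below its CA1 controls, at 86, 143 and 100. Such an order held for 8.76% of the genes tested, and these signals are not shown to be above background.

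Other cell and pathway lists moved between the same control arrays. The pan-neuronal list had a control 3 minus control 1 median of -0.51 in CA1 and -0.55 in CA3, with 11 of 12 genes lower in both fields. Its summed signal was 406200, 352500 and 280500 in CA1 controls and 558200, 564100 and 416100 in CA3 controls. The microglia and macrophage list had medians of 3.35 and 3.13, with 10 of 11 genes higher in both fields, and the myelin list 3.67 and 2.72, with 8 of 8. The astrocyte list had medians of 0.29 and 0.53. The Gapdh 3' to 5' ratio was 3.71, 4.98 and 5 in CA1 controls 1, 2 and 3, and 3.84, 3.75 and 3.93 in CA3. The beta-actin ratio took another course, at 14.5, 22.2 and 18.3 in CA1 and 21.4, 20.3 and 15 in CA3, and was lowest in control 1 in CA1 and in control 3 in CA3. The part of these lists and of the ratios in the movement of the respiratory chain genes was not tested.

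**Figure D5:**
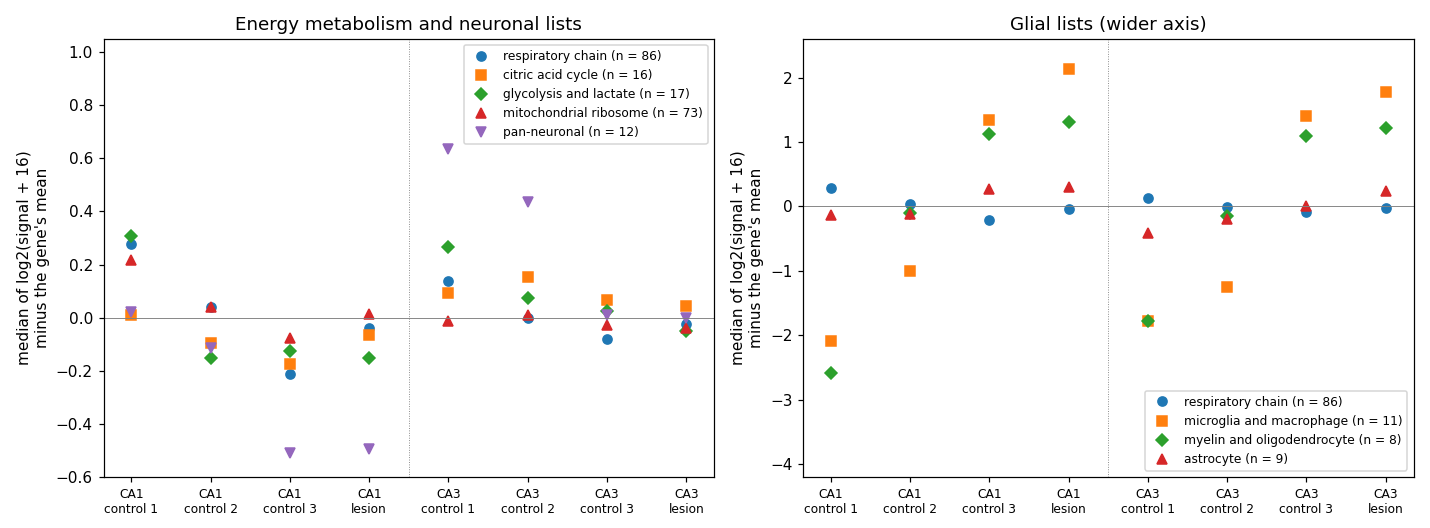
Median deviation of each gene list from its genes' means (log2) by array, on the left for energy metabolism and neuronal lists and on the right, on a wider axis, for glial lists. The respiratory chain is highest in control 1 of both fields, and the microglia and myelin medians are lowest there and high in control 3 and the lesion arrays.

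The neighbouring pathways had no called gene in either the field comparison or the mean lesion effect. Among 18 tested genes for electron carriers and further assembly factors the median field difference was -0.03 and the median lesion effect 0.05. The citric acid cycle, which feeds NADH and succinate to the chain, had a median of 0.15 between the fields, with 12 of 16 genes higher in CA3, and -0.05 with the lesion. Dld, the dehydrogenase shared by several keto acid complexes, was higher in CA3 by 0.68 ± 0.17 (limma adjusted p = 0.194). Glycolysis and lactate genes had a median lesion effect of -0.17, with 14 of 17 lower, against 5043 of all 10844 genes tested. Pgk1 was at -0.52 ± 0.24, Pfkp at -0.50 ± 0.19 and Hk1 at -0.38 ± 0.18. Slc16a1 went the other way, at 0.82 ± 0.44 (limma adjusted p from 0.771 to 0.798 for these genes). Mitochondrial carriers and import genes, 22 in all, had a median of 0.15 between the fields and -0.02 with the lesion. Between control 3 and control 1 the glycolysis list gave -0.36 and -0.20, and the citric acid cycle -0.14 and -0.04.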

How the data were processed

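The deposited values are linear signal intensities, 1 per probe set and array, scaled by the authors to a trimmed mean of 2501 on each array, as the values show. The software that made them is not given in the sources used here. Probe sets were named through the platform's annotation, of which 20826 have 1 symbol, 436 several and 9780 none, and 7 with several symbols that include a respiratory chain prefix were not used. Values were taken as log2(signal + 16). Control probe sets and those with a mean under the 40th percentile were left out, leaving 18625 of 31042. Using limma 3.58.1 (R 4.3.3), 1 coefficient per group was estimated from the 8 arrays together, with an intensity trend and Benjamini-Hochberg adjustment at 0.05, and 4 residual degrees of freedom. The script was tested on simulated data. The number of arrays limits the precision. The members, gene lists and markers were chosen with earlier results of these data known. Named were members called in any contrast, those with the smallest p in each direction (for the field comparison only where the control arrays did not overlap), members with the widest and narrowest range over the controls, and single genes chosen after their values were seen. Promoters came from RefSeq (GRCr8), matched by gene ID, with entries for 82 of 90 members. Alternatives were other pseudocounts, filters, quantile normalisation, no trend, mean of probe sets, replicate block and leaving out arrays.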

Additional observations from a re-analysis of the deposited data

Results flagged for a closer look

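In 3 members the lesion arrays of the 2 fields lay beyond all their controls in opposite directions, which held for 8.51% of all genes. For Ndufaf7 the lesion difference was -0.93 in CA1 and 0.48 in CA3, and the difference between them was 1.40 ± 0.48. Its second probe set gave -0.32 and 0.52. For Ndufaf8, a partner of the complex I assembly factor Ndufaf5, the values were 0.49 and -0.26, a difference of -0.76 ± 0.43. For Ndufa1, a small membrane subunit of complex I, they were -0.30 and 0.15, a difference of 0.45. The limma adjusted p of each difference was 0.9999, and each rests on 1 lesion array per field.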

How the results depend on the processing

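Of 907 values under alternative settings, 887 kept their direction and their side of the threshold, or stayed within the spread or 1.5 times the count. Of these values 642 were of named genes, of which 639 were kept. The limma adjusted p of these genes was at least 0.432 in the main fit, so that they could hardly change side. Of the 265 counts and medians, 248 were kept. The members' median had a spread of 0.19 between control arrays of a field, against main medians from -0.06 to 0.02. A kept median could therefore have changed sign. The number of respiratory chain genes called was 0 under all settings but 1. The replicate numbers were not taken as pairs in the main fit. Same-numbered controls correlated at 0.155, 0.0601 and 0.306, of which 1 is under 0.1. Controls of different numbers correlated at -0.204 to 0.0556, and each control array correlated best with its own number. The limit of 0.1 therefore does not show that the numbers are unpaired, and the lesion results depend on this choice. With the replicate block, 2 members were called lower for the mean lesion effect, Ndufb3 (-0.70 ± 0.13, limma adjusted p = 0.0160) and Cox7b (-0.64 ± 0.16, adjusted p = 0.0472), beside 697 probe sets (3.74%). The block gave 358 probe sets for the field comparison, 258 for the CA1 lesion and 310 for the CA3 lesion, with no member, and 0 for the difference of lesion effects. Both lesion arrays carry the number 1. For the mean lesion effect the block therefore sets them against control 1 alone, and for single fields mainly against control 1. It moved the median mean lesion effect of the members from -0.03 to -0.22, with 13 higher and 73 lower in place of 38 and 48, while the median over all genes was 0.02. In 26 members the effect turned to lower and in 1 to higher. Among the genes named for that effect it turned Ndufs8 to -0.019 and left Ndufs7 at 0.09 and Ndufb11 at 0.04, while Sdha was at 0.76. In CA1 the members' median was -0.25, and in CA3 it was -0.20. Averaging probe sets turned the lesion difference between fields of Ndufv3 to -0.030.

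Leaving out each array in turn gave 24 to 104 probe sets for the field comparison and 0 to 1 for the mean lesion effect. Without the intensity trend the field comparison gave 0. For the CA3 lesion, quantile normalisation gave 5 probe sets and a pseudocount of 1 gave 5. In fits added after the data were seen, leaving out control 1 of both fields gave 5 for the field comparison, and leaving out control 3 of both gave 182 for the mean lesion effect, 3 for CA1 and 6 for CA3. The causes were not tested. Signals near the array median limit the dim isoforms.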

Other observations

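Further groups of mitochondrial genes had no gene called in either the field comparison or the mean lesion effect. Regulators of mitochondrial gene expression, 14 tested, had a median of -0.0059 between the fields and of 0.13 with the lesion, with Ppargc1a, a coactivator of mitochondrial biogenesis, at -0.44 ± 0.21 (limma adjusted p = 0.779). The 73 genes of the mitochondrial ribosome had medians of -0.04 and -0.02. Genes of fission, fusion and quality control, 15 tested, had medians of 0.06 and -0.05, and 9 antioxidant genes had medians of 0.09 and 0.20. Between control 3 and control 1 the mitochondrial ribosome had medians of -0.27 in CA1 and 0.04 in CA3, and the regulators 0.26 and 0.015.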
